A study of Nannochloropsis oceanica with 6 samples.

Results

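The 200 nuclear transcripts with the highest level in wild-type (WT) cells of the alga Nannochloropsis oceanica grown in low light are described here, with their level in 2 NoPAC4 knockout lines. They were chosen by mean TPM over both WT libraries, among the gene IDs that begin with NO. TPM is a relative level, the number of reads per unit of transcript length, scaled so that each library sums to 1000000. The 200 transcripts are 1.94% of the 10333 nuclear IDs, in a table of 10493 IDs that also holds 125 plastid and 35 mitochondrial IDs. All 200 passed the filter on low counts. The files do not pair nuclear IDs with gene names, and 0 of the 200 matched the reference gene table, so transcripts are called by their WT rank and no protein, function or sequence is given.

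Polyadenylated RNA was sequenced from strain IMET1 in 3 groups of 2 libraries: WT, knockout line 1 and knockout line 2. Line 1 and line 2 are the mutants numbered so in the labels, which give both the genotype NoPAC4 knockout and do not state the kind of mutation, how the lines were made or whether a line is 1 clone. All groups grew for 5 days under constant light (50 µmol photons per m2 and second), to the logarithmic phase. The temperature is given as 23 °C in the treatment text and 25 °C in the growth text. Library totals ran from 13956855 to 16311248 expected counts. Nothing in the labels says that replicates came from separate cultures, and p-values then reflect only how far these libraries differ, which may be technical. The targeted gene was not analysed here, because no nuclear ID carries a name.

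Nannochloropsis oceanica is a single-celled marine alga with a plastid derived from a red alga, and it is studied for its storage of oil and of long-chain polyunsaturated fatty acids. In growing photosynthetic cells, a small part of the nuclear genes usually gives a large part of the messenger RNA. Light-harvesting antenna proteins, ribosomal proteins, translation factors and enzymes of carbon metabolism are commonly among them in algae. Messenger RNAs of the nucleus carry poly(A) tails, while most plastid and mitochondrial transcripts do not, so organelle genes take little of a poly(A) library. Plastid psbA, which encodes a reaction-centre protein of photosystem II, had 330 to 1227 reads per library, and mitochondrial cox1, which encodes a subunit of the terminal oxidase of respiration, had 38 to 61. Plastid rbcS had 0 or 1 read in each library. All organelle genes together held at most 0.0430% of the TPM of any library, so that a share of all TPM and a share of nuclear TPM were nearly the same.

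The 200 transcripts made up a similar part of the messenger pool in every library. Their share of all TPM was 26.29% and 28.44% in WT, 26.04% and 26.58% in line 1, and 25.69% and 27.46% in line 2. The group means were 27.37% ± 1.52 in WT, 26.31% ± 0.38 in line 1 and 26.57% ± 1.25 in line 2 (SD, n = 2 each). The lines overlapped with WT, and the 2 WT libraries were farther apart than the group means. These shares are a description, since the WT levels chose the members, which favours a higher share in WT. As a share of expected counts, which are not divided by length, they held 17.40% to 19.62%. Relative abundance in bulk RNA cannot tell more cells with a transcript apart from more RNA per cell.

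**Figure D1:**
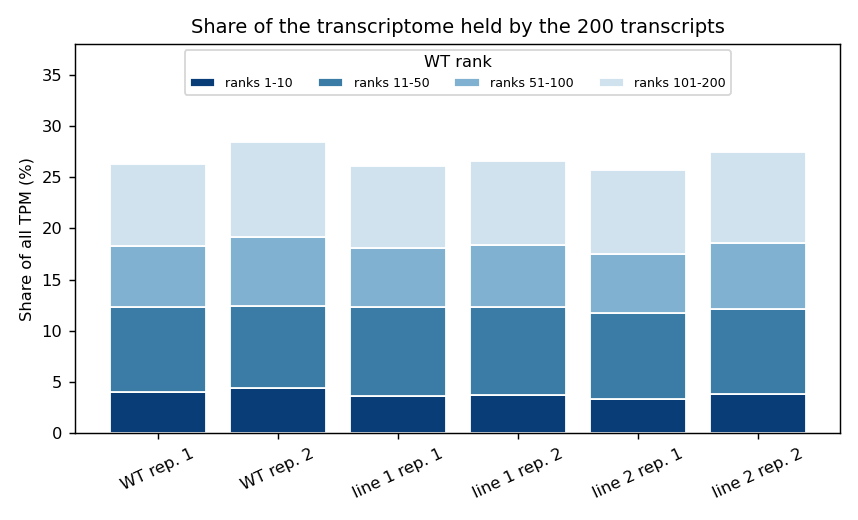
Share of all TPM (%) held by the 200 transcripts in each of the 6 libraries, stacked by WT rank. The total lies between 25.69% and 28.44%, and the bottom block, ranks 1 to 10, is smaller in each of the 4 knockout libraries than in either WT library. The WT levels set the ranks, which favours larger blocks in WT.

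The pool was steeply ranked. In the WT mean, the first 36 nuclear transcripts held 10% of TPM, 168 held 25% and 829 held 50%. The members ran from 6873 to 687 TPM with a median of 1121, against a median of 44.5 over all nuclear IDs. Every member had at least 308 TPM and at least 377 expected counts in every library. The limit of the list lay in a flat stretch of the ranking. The last 2 members had 688.1 and 687.4 TPM in the WT mean, and the next 2 nuclear transcripts had 686.1 and 679.4.

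The members were short and spread over the whole set of ID prefixes. Relative transcript length was taken as the ratio of count to TPM, set to 1 for the median tested nuclear gene. The median member had 0.551 (quartiles 0.290 and 1.09), and 142 of 200 were shorter than the median gene. For ranks 1 to 10 the median was 0.332, and 10 of 10 were below 1, while the next 200 transcripts had 0.775. TPM divides by length, so length is part of the rule. Ranked instead by CPM in WT (counts scaled to the library total, not divided by length), 105 of the 200 stayed among the first 200 nuclear IDs, and TPM rank 180 stood at CPM rank 5940. All 30 prefixes (NO01 to NO30) held at least 1 member, from 0.840% of the IDs of NO01 to 3.68% of those of NO16.

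Most members stood among the first 200 in every library. The number of members in the first 200 nuclear transcripts was 184 and 182 in the WT libraries, 171 and 175 in line 1, and 173 and 174 in line 2, and 142 were there in all 6. Choice of the members by WT level favours higher numbers in WT and some loss from the list in the knockout libraries. By the mean of the 4 knockout libraries, 23 members dropped out of the first 200. Of these, 18 had a WT rank beyond 150, and the best placed was rank 60. The member placed lowest by that mean had WT rank 169 and knockout rank 357. The 23 nuclear transcripts that took their places came from WT ranks down to 429. The first 200 shared 166 transcripts between the WT libraries, 182 between those of line 1, 180 between those of line 2, and 182 between the means of line 1 and line 2. The WT libraries thus shared fewer top transcripts with each other than either pair of knockout replicates did.

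**Figure D2:**
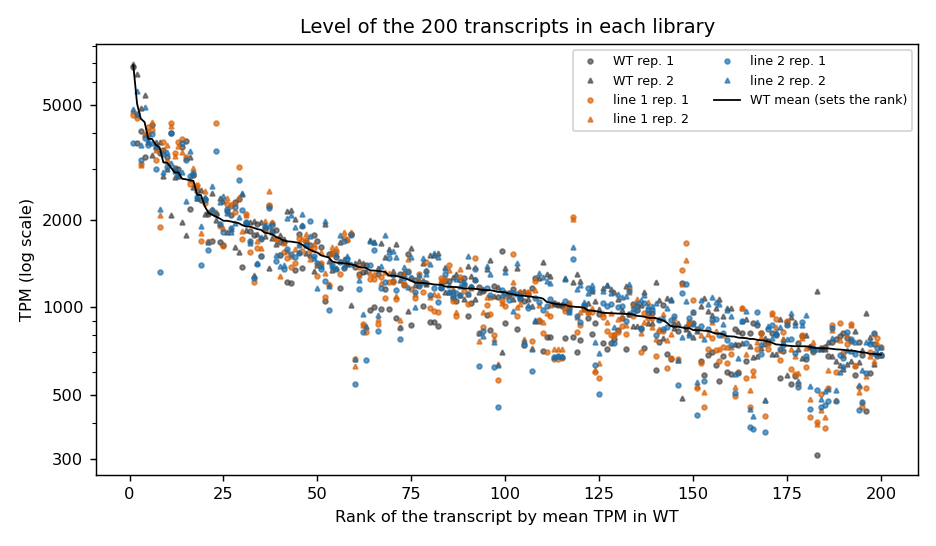
TPM of each of the 200 transcripts (log scale) in the 6 libraries against WT rank, with the WT mean as a line. The levels run from 6873 to 687 TPM in the WT mean, and points far below the line stand at ranks 8 and 60, and far above it at ranks 118 and 148.

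The top 10 transcripts held 3.985% and 4.414% of TPM in WT, 3.654% and 3.763% in line 1, and 3.382% and 3.872% in line 2. All 4 knockout libraries lay below both WT libraries. The part due to ranks 1 and 8 together was 1.019% and 1.071% in WT, 0.650% and 0.686% in line 1, and 0.502% and 0.703% in line 2. The other 8 of the top 10 held 2.966% and 3.343% in WT and 2.880% to 3.169% in the knockout libraries, so that the groups overlapped without those 2 transcripts. The WT levels set the top 10, which favours a higher share in WT. Ranks 1 and 8 were set apart after their values were seen, so these shares are descriptions. Ranks 11 to 50 held 8.038% to 8.658% in the 6 libraries.

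The most abundant transcript, NO02G05460, had 6784 and 6963 TPM in WT, 4608 and 4767 in line 1, and 3701 and 4834 in line 2. Its expected counts and those of rank 8 were not whole, which makes their single values uncertain, as described below with the runs of IDs. Every knockout library was below both WT libraries. The difference of both lines from WT was -0.67 ± 0.14 on the log2 scale (SE, edgeR quasi-likelihood adjusted p = 0.0754), which did not pass. It passed with DESeq2 (adjusted p = 0.00381), which called 5.74% of all tested genes. It also passed with the replicate number as a block in edgeR (adjusted p = 0.0333), which called 3.47%. Without WT replicate 1 the difference was -0.72, and without WT replicate 2 it was -0.63. NO02G05460 was first in both WT and both line 1 libraries, while rank 2 was first in both line 2 libraries. Rank 8, which belongs to the same run of IDs, had 3405 and 3742 TPM in WT, 1891 and 2091 in line 1, and 1323 and 2194 in line 2. All 4 knockout values were again below WT, and its place in the libraries went from 11 and 5 in WT to between 23 and 63 in the knockout libraries. Its difference was -0.98 ± 0.22 on the log2 scale (SE, edgeR adjusted p = 0.0814). It passed under the same alternatives (adjusted p = 0.00133 with DESeq2 and 0.0312 with the edgeR block). Without WT replicate 1 the difference of rank 8 was -1.08, and without WT replicate 2 it was -0.89. Rank 3 had 4073 and 4907 TPM in WT, 3131 and 3105 in line 1, and 3239 and 3649 in line 2. It was lower in every knockout library, with a difference of -0.50 ± 0.13 (SE, edgeR adjusted p = 0.127). It passed with DESeq2 (adjusted p = 0.0394) but not with the edgeR block (adjusted p = 0.0580). Without WT replicate 1 the difference of rank 3 was -0.67, and without WT replicate 2 it was -0.33.

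The remaining 7 of the top 10 overlapped between the groups. Rank 2 had 3689 and 6428 TPM in WT, 4520 and 4627 in line 1, and 4649 and 5602 in line 2. Rank 4 had 3318 and 5422 in WT, 3941 and 3990 in line 1, and 3846 and 4917 in line 2. For both, the 2 WT libraries enclosed all 4 knockout libraries. Ranks 5, 6 and 7 had 3003 to 4379 TPM and ranks 9 and 10 had 2847 to 3734 over the 6 libraries, with log2 differences of both lines from WT from -0.17 to 0.04. Without WT replicate 2 the differences of ranks 2 and 4 turned from -0.14 and -0.13 to 0.31 and 0.29. Without WT replicate 1 they were -0.49 and -0.46.

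One transcript of the 200, NO17G02930 at rank 60, was called against WT. It had 1379 and 1419 TPM in WT, 662 and 628 in line 1, and 546 and 665 in line 2. The knockout values were all less than any WT value, and its place among the nuclear transcripts went from 55 and 67 in WT to between 196 and 272. The mean fell from 1399 ± 28.9 TPM (SD, n = 2 WT libraries) to 625 ± 55.6 TPM (SD, n = 4 knockout libraries). On the log2 scale the change was -1.20 ± 0.12 (SE, with an edgeR adjusted p of 0.0303). The difference was -1.15 ± 0.14 in line 1 (edgeR adjusted p = 0.0689) and -1.24 ± 0.14 in line 2 (edgeR adjusted p = 0.0941), which did not pass. Each line passed with DESeq2 (adjusted p = 8.9e-08 and 5.1e-09), which called 4.15% and 3.85% of all tested genes. Line 1 also passed with the block (edgeR adjusted p = 0.0379), which called 0.206%. Without WT replicate 1 the differences of line 1 and line 2 were -1.23 and -1.32. Without WT replicate 2 they were -1.09 and -1.18. Line 1 and line 2 differed by 0.09 (edgeR adjusted p = 0.918). The call for both lines together was lost without any 1 of the 4 knockout libraries, with adjusted p from 0.0670 to 0.2795 and log2 values from -1.28 to -1.13 over all libraries left out in turn.

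Over the 200 members, 1 of 200 was called in both lines together, while 0.165% of all 9712 tested genes were called in either direction and 0.0824% as lower. In line 1 against WT 0 of 200 were called (0.134% of all genes), and in line 2 against WT 0 of 200 (0.0412%). The WT levels chose the members, which favours lower values in the lines, so these counts are descriptions. At an unadjusted p below 0.05 in both lines together, 41 members were lower and 3 higher, while 9.69% of all genes were lower and 4.73% higher. The median log2 difference of the members was -0.05 for both lines, -0.14 for line 1 and 0.00 for line 2, against 0.01, 0.00 and 0.01 over all tested genes. These medians rested on the WT libraries: without WT replicate 1 they were -0.26, -0.35 and -0.16, and without WT replicate 2 they were 0.02, 0.01 and 0.01. Single members ranged from -1.20 to 0.76, 2 of 200 exceeded a 2-fold difference, and 29 exceeded 1.5-fold. Among the next 200 transcripts 5 and 24 did, and among all 9712 tested genes 141 and 708. A further 21 members had an edgeR adjusted p between 0.05 and 0.06, so that the number called rested on a narrow margin. In this range lay 15 of the next 200 transcripts and 258 of all 9712 tested genes. With DESeq2, 38 members were called for both lines, 26 for line 1 and 30 for line 2, while it called 5.74%, 4.15% and 3.85% of all genes. With the replicate number as a block, edgeR called 28 members for both lines and 3.47% of all genes.

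**Figure D3:**
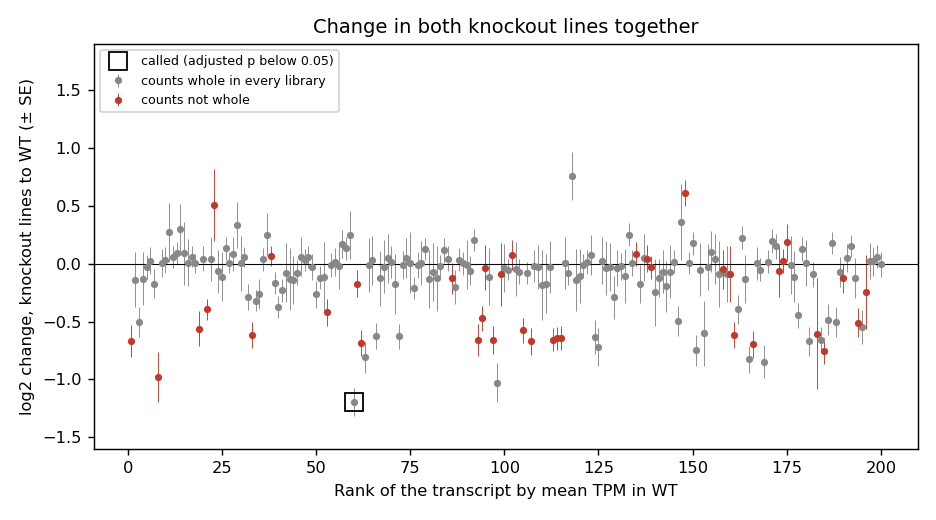
Fitted log2 difference between both knockout lines and WT (± SE) of the 200 transcripts against WT rank, with red points where expected counts were not whole. The boxed point is rank 60 at -1.20, and the values span -1.20 to 0.76.

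Separation of the groups was counted as well. All 4 knockout libraries lay below both WT libraries for 44 members (22.0%) and above both for 12 (6.00%). Among all tested genes these shares were 12.8% and 10.6%. For the next 200 transcripts they were 19.5% and 11%. When the 200 transcripts were chosen on the knockout libraries instead, 12.5% lay below and 10% above. When they were chosen on the mean of the 3 group means, 15.5% lay below and 8% above. With members chosen on 1 WT library and set against the other, the direction turned with the library. Chosen on WT replicate 1 and set against replicate 2, 47.5% lay below and 23.5% above, while 35.2% and 35.3% of all genes did. Chosen on WT replicate 2 and set against replicate 1, 26.5% lay below and 41.5% above, while 25.3% and 28.6% of all genes did. Whether more members lay below or above WT thus depended on which WT library chose them and which was compared.

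Of the uncalled members, rank 98 had the largest difference downward. It had 1090 and 1173 TPM in WT, 563 and 635 in line 1, and 452 and 635 in line 2, with no overlap (log2 difference -1.03 ± 0.17, SE, edgeR adjusted p = 0.0524). Upward, rank 118 was the farthest from WT, with 790 and 1224 TPM in WT, 2059 and 2020 in line 1, and 1469 and 1612 in line 2. All its knockout values were above WT and those of line 1 were highest (0.76 ± 0.21, SE, edgeR adjusted p = 0.142). Rank 148 had 854 and 841 TPM in WT, 1668 and 1455 in line 1, and 1202 and 1053 in line 2. These also did not overlap with WT (0.61 ± 0.11, SE, edgeR adjusted p = 0.0539). Ranks 98, 118 and 148 were picked after their values were seen.

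The difference between line 1 and line 2 holds no WT value, although the WT libraries enter the fitted spread, the filter and the scaling. The test called 0 of 200 members in edgeR's quasi-likelihood test, and 0.0% of all tested genes. DESeq2 also called 0 members, and 0.175% of all genes, and limma-voom called 0 of both. At an unadjusted p below 0.05, 6 of 200 members differed, 3%, while the share over all tested genes was 3.75%. In a fit of the 4 knockout libraries alone, with 2 residual degrees of freedom, 0 members and 0.124% of 9654 genes were called. At an unadjusted p below 0.05, 42 members (21.0%) and 17.0% of all genes differed in it. This fit was added after the data were seen. In the fit of all 6 libraries the median difference was 0.00 on the log2 scale, the median size was 0.17 against 0.14 over all tested genes, and the farthest member was at 0.63 in size. Line 1 was above line 2 in both libraries for 53 members and below in both for 51, while the shares over all tested genes were 25.0% and 24.4%. The lines lay on opposite sides of both WT libraries for 7 members, and for 1.31% of all tested genes.

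A pair of members shows what differences between the lines were seen. Rank 166 had 881 and 675 TPM in WT, 604 and 586 in line 1, and 381 and 423 in line 2, so that line 2 was below line 1 and line 1 below WT. Its difference between line 1 and line 2 was 0.57 on the log2 scale (edgeR unadjusted p = 0.00555, adjusted p = 0.914). For rank 148, given above, line 1 was higher by 0.48 (edgeR unadjusted p = 0.00725, adjusted p = 0.914). Neither passed the adjustment over all genes.

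Replicate spread was widest in WT. The log2 ratio of replicate 2 to replicate 1 was taken for every member, and its SD over the 200 was 0.458 for WT, 0.151 for line 1 and 0.230 for line 2. The SDs for 6376 other nuclear genes above 20 CPM in every library were 0.439, 0.155 and 0.209. Counting error was small for the members, with a median sampling SD of about 0.02, against 0.06 for the other genes. The deep counts of the members therefore did not make the WT replicates closer. The replicates differed by over 2-fold for 8 members in WT, for 1 member in line 1 and for 0 in line 2. They differed by over 1.5-fold for 54, 1 and 8 members, which is 27.0%, 0.5% and 4.00%, against 16.5%, 0.455% and 1.05% of the other genes. Differences over 1.5-fold were thus more frequent among members than among other genes in WT and line 2, although the SDs were close. Over 2-fold the shares were 4.00% of members and 3.80% of other genes in WT, and 0% and 0.125% in line 2. In line 1 they were 0.5% and 0.173%. For the next 200 transcripts, 20% in WT and 4% in line 2 differed by over 1.5-fold, and 6% in WT by over 2-fold. The wide WT spread enters every comparison with WT given above.

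**Figure D4:**
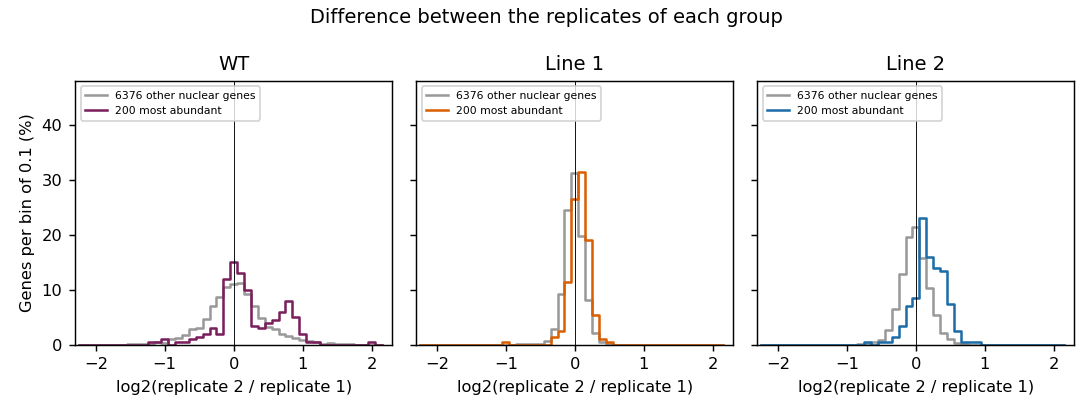
Distribution of log2(replicate 2 / replicate 1) of the 200 members (coloured) and of 6376 other nuclear genes (grey) in WT, line 1 and line 2, as a percentage of genes per bin of 0.1. In WT the members have a main peak near 0 and a separate one near 0.8, while line 1 and line 2 have 1 peak each.

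The separate peak in WT held a block of transcripts that also differed between the libraries of the knockout lines. In WT, 58 members (29.0%) had a log2 ratio above 0.5, with a median of 0.78. Among the other nuclear genes the share was 12.2%. Together these 58 held 5.36% and 8.82% of TPM in WT, 6.29% and 6.73% in line 1, and 6.96% and 8.44% in line 2. The 4 knockout libraries thus lay between the 2 WT libraries. The 58 were chosen by the WT ratio among members that the same WT levels chose. A transcript high in 1 WT library can enter the list through it, so the shares of 29.0% and 12.2% are descriptions. The replicates of the lines were not used. In line 2 replicate 2 was above replicate 1 for 58 of 58, with a median log2 ratio of 0.36. In line 1 it was above for 53 of 58, with a median of 0.14. Over all 200 members it was above for 167 in line 2 and 144 in line 1. Among 131 members with a WT log2 ratio from -0.5 to 0.5 these numbers were 107 and 86. Among 781 other nuclear genes with a WT log2 ratio above 0.5 they were 661 and 523. Of the 58, 8 had a WT rank of 50 or better, and ranks 2 and 4 were among them. Which property of the cultures or libraries moved with this block was not tested.

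The other members were more even between libraries. For 131 members with a WT log2 ratio from -0.5 to 0.5, the share was 18.53% and 18.30% in WT, 17.35% and 17.52% in line 1, and 16.43% and 17.17% in line 2. All 4 knockout libraries were below both WT libraries here. A further 11 members had a WT ratio below -0.5 and held 2.401% and 1.328% in WT and 1.858% to 2.407% in the knockout libraries. Both splits were drawn after the values were seen and use WT levels, so their differences from WT have no test.

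Single members at the ends of the WT spread were far from their neighbours in rank. Rank 183 had 308 and 1137 TPM in WT, 403 and 395 in line 1, and 519 and 721 in line 2. Its WT replicates differed by 2.00 on the log2 scale, and it stood at place 535 in WT replicate 1. Rank 196 had 437 and 957 in WT, and its knockout values of 527 to 757 lay between them (WT replicate ratio 1.23). In the opposite direction, rank 147 had 1218 and 487 TPM in WT and 788 to 1345 in the lines (WT replicate ratio -1.21), and rank 15 had 3771 and 1773 in WT and 2329 to 3318 in the lines (-1.01). For ranks 183, 196 and 15 all knockout values lay between the 2 WT values.

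In the lines, the widest replicate differences were at ranks 23 and 111 in line 1 and at ranks 52 and 8 in line 2. Rank 23 had 2106 and 2010 TPM in WT, 4343 and 2133 in line 1, and 3483 and 2116 in line 2. In each line, 1 replicate was near WT and 1 well above it, and the ratio in line 1 was -1.03. Rank 111 had 789 and 1302 in WT, 703 and 959 in line 1, and 1008 and 1234 in line 2 (line 1 replicate ratio 0.46). Rank 52 had 1055 and 1946 in WT, 1088 and 1315 in line 1, and 1232 and 1995 in line 2 (line 2 replicate ratio 0.87). The values of ranks 111 and 52 were higher in replicate 2 of every group. For rank 8, given above, the line 2 ratio was 0.80.

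Some members had consecutive IDs. No source states that IDs follow the order along a chromosome, and runs are taken from the IDs alone. There were 11 runs with 27 members, 9 of them of 2 IDs, 1 of 4 and 1 of 5, while the next 200 transcripts had 11 runs, all of 2 IDs. Estimated counts are not whole where a program divides reads among IDs that share sequence, and this was the case for 17 of 27 members in runs and 21 of 173 outside runs. No sequences were compared, so it is not known with which IDs the members share reads. Single values with counts that are not whole are uncertain for this reason. Ranks 1, 8 and 166 are among them. So are all IDs of the runs under NO02, NO06 and NO18, of the NO12 pair with ranks 21 and 166, and of the NO09 pair with ranks 23 and 102. The sums over runs given here are descriptions.

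The run of 4 under NO02 contained ranks 1, 8, 19 and 53, and was the most abundant. Its summed level was 14066 and 14695 TPM in WT, 9388 and 9868 in line 1, and 7408 and 10118 in line 2. The sum was lower in each knockout library than in WT, at 1.44% of TPM in the WT mean and 0.920% in the knockout mean, a log2 ratio of -0.65. Its members differed from WT by -0.98 to -0.42 on the log2 scale, and none was called (edgeR adjusted p from 0.0754 to 0.142). The run of 5 under NO06 contained ranks 33, 105, 113, 114 and 115, with sums of 5897 and 6224 TPM in WT, 3966 and 4234 in line 1, and 4037 and 4083 in line 2. The 4 knockout sums were close together and below WT, with a log2 ratio of -0.57. Its members lay at -0.66 to -0.58, and none was called (edgeR adjusted p from 0.0524 to 0.056).

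Pairs of IDs did not all look like these runs. A pair under NO18 summed to 2354 and 2107 TPM in WT, 1567 and 1499 in line 1, and 1224 and 1477 in line 2, and a pair under NO12 with ranks 21 and 166 to 2989 and 2814, 2283 and 2279, and 1955 and 2107. Both were lower in every knockout library. The pair under NO22, ranks 2 and 4, had whole counts and summed to 7007 and 11850 in WT, 8461 and 8617 in line 1, and 8495 and 10519 in line 2, which overlapped (log2 ratio -0.06). The pair under NO09, ranks 23 and 102, summed to 3263 and 3077, 5878 and 3355, and 4609 and 3085. It was high in 1 library of each line. The 5 other pairs had log2 ratios of the knockout to the WT mean from -0.13 to 0.07.

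**Figure D5:**
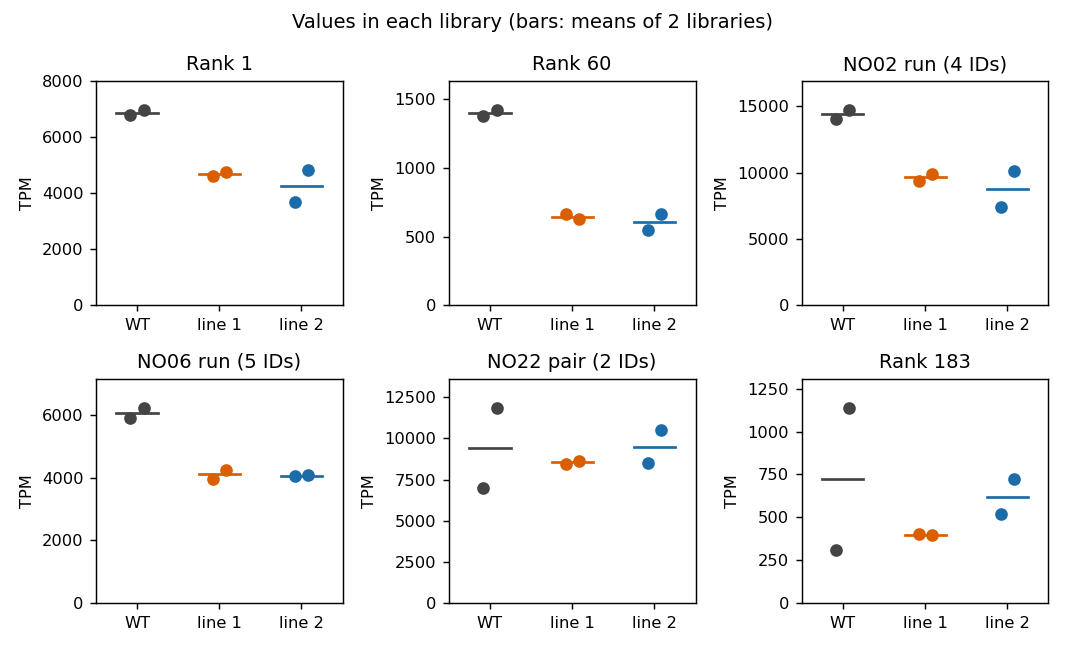
TPM in each library (points, bars are means of 2 libraries) for ranks 1, 60 and 183, and TPM sums for the NO02 run, the NO06 run and the NO22 pair. In ranks 1 and 60 and both runs all knockout points lie below WT, while in the NO22 pair and at rank 183 they lie between the WT libraries.

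Whether counts were whole went with the direction of the difference among the members. For 162 members with whole counts in every library, the median log2 difference of both lines from WT was -0.03, and 15.4% lay below WT in all knockout libraries. For the 38 others the median was -0.41, and 19 of 38 (50.0%) lay below. Among other tested nuclear IDs the shares were 12.3% with whole counts and 13.1% without. Of the 38, 17 lie in runs, so that they are not independent of each other. The part of read sharing in these differences was not tested.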

How the data were processed

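Expected counts per gene and TPM for the same 6 libraries were deposited by the authors, as 1 table each. The submitters' processing notes name the tools STAR and edgeR without versions. How reads were counted, and on which genome build and annotation, is not given in the sources used here. TPM values as deposited sum to 1000000 per library. Of the deposited expected counts, 20.1% were not whole (tolerance 1e-06), and they were rounded for the tests.

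Sample titles gave the groups and the replicate numbers. The 200 members were chosen by mean WT TPM. The members, lists and tests were chosen with earlier results of these data known. The main test was edgeR 4.0.16 in R 4.3.3 (robust quasi-likelihood, TMM factors, default filter on low counts by group), with all 3 groups in 1 model, no replicate block and 3 residual degrees of freedom. The filter removed 781 IDs. Same-numbered libraries deviated together, with correlations over 6577 genes of 0.41 (line 1 and line 2), 0.21 (line 1 and WT) and 0.56 (line 2 and WT). No label says whether a number marks a shared culture or day, and the sample descriptions number some libraries differently, so values with the replicate number as a block stand beside results whose call they change. Benjamini-Hochberg adjustment ran over all 9712 tested genes, and a gene was called at an adjusted p below 0.05. SEs come from the fitted test statistic. CPM were scaled by the TMM factors. WT was compared with both lines together and with each of them, and the lines with each other. The code was tested on simulated data.

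Transcripts described by rule were WT ranks 1 to 10, every called member, ranks 199 to 202 and the 2 largest replicate ratios in each group. Others were picked after their values were seen, as were 1 printed ID (rank 1), the runs and the split by WT replicate ratio. Alternatives were other scaling factors, no filter, DESeq2 1.42.0, limma-voom and TPM with limma 3.58.1 (pseudocounts 1 and 0.1), a replicate block, libraries left out and other choices of members. The depth of the libraries makes counting error small beside the spread between replicates for these transcripts.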

Additional observations from a re-analysis of the deposited data

How the results depend on the processing

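The number of members called for both lines against WT was 1. It was also 1 with upper-quartile factors, DESeq2 size factors, limma-voom, members chosen by CPM or by the mean of the 3 groups, and the first 100 or 400 transcripts. It was 20 with TMM factors computed without the members (2.09% of all genes called), 21 with no filter on low counts (2.26%), 38 with DESeq2 (5.74%), 22 at an adjusted p below 0.06 (2.82%), and 0 on log2(TPM + 1) or log2(TPM + 0.1) with limma and with members chosen on the knockout libraries. Leaving out libraries gave 0 to 72: 0 without any 1 knockout library, 72 without WT replicate 1 (29.1% of all genes) and 27 without WT replicate 2 (5.22%). With members chosen on 1 WT library and tested against the other it was 71 (chosen on replicate 1) and 23 (chosen on replicate 2), in those 2 fits. For line 1 the number was 0, against 26 with DESeq2 (4.15% of all genes) and 0 to 95 with libraries left out (95 and 10 without WT replicate 1 and 2, beside 32.2% and 2.19% of all genes), and 87 and 9 with members chosen on 1 WT library. For line 2 it was 0, against 30 with DESeq2 (3.85%) and 0 to 45 with libraries left out (45 and 34, beside 15.8% and 6.80% of all genes), and 48 and 33 with members chosen on 1 WT library. Line 1 against line 2 gave 0 members in 22 of 22 alternatives, while the genes called among all went from 0 to 12 without either WT library or both, and to 17 with DESeq2. Leaving out 1 library of 2 assumes that the lone library varies like the other groups. This did not hold for WT, where the SD of the replicate log2 ratio of the members was 0.458, against 0.151 and 0.230 in the lines. The numbers called against 1 WT library thus rest on the smaller spread of the lines.

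A fit with the replicate number as a block called 28 members for both lines (3.47% of all genes) and 1 for line 1 (0.206%), and it called 0 for line 2 and 0 between the lines. Within each replicate number of the sample titles, the share of TPM was lower in both lines than in WT. The WT levels chose the members, which favours this order, and the sample descriptions number some libraries differently.

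The share of TPM in the knockout libraries (26.44%) was 18.09% by expected counts, 3.668% for the top 10 and 12.14% for the top 50. It moved by less than the replicate spread under the 9 other alternatives, of which those without a WT library cannot change it. The WT share (27.37%) was 28.44% without WT replicate 1. Without WT replicate 2 it was 26.29%, which is below the knockout share. NO17G02930 was called under 9 of 15 alternatives and not with TPM and limma (adjusted p 0.0502 and 0.0523) or without any 1 knockout library. Differences near 0 changed sign: rank 5 to 0.0373 with log2(TPM + 1) and 0.0373 with log2(TPM + 0.1), rank 9 to -0.0016 with TMM factors computed without the members and -0.0025 with no filter. With libraries left out, rank 2 ran from -0.49 to 0.31, rank 4 from -0.46 to 0.29, rank 5 from -0.0780 to 0.00024, rank 6 from -0.13 to 0.17, rank 9 from -0.16 to 0.16 and rank 10 from -0.0269 to 0.0818. The causes were not tested. On log2(TPM + 1) the median difference of the members for both lines was 0.02, against -0.05. Scaling moved the median of all genes by less than 0.1.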

Other observations

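In each of the 3 groups, the library numbered 2 in the sample titles held the higher share of TPM in the 200 transcripts. By CPM, 137 members in WT, 144 in line 1 and 167 in line 2 were higher in that library. The sample descriptions number some libraries of WT and line 2 differently. For the members, the median log2 ratio of replicate 2 to 1 was 0.13 in WT, 0.09 in line 1 and 0.18 in line 2. It was 0.14, 0.04 and 0.13 for the next 200 transcripts, of which 129, 134 and 145 were higher in replicate 2. For 6376 other nuclear genes above 20 CPM it was 0.02, -0.01 and -0.02. Among those other genes, 781 had a WT log2 ratio above 0.5, and 661 of these were higher in replicate 2 of line 2 and 523 in replicate 2 of line 1.

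The log2 levels of the members in each library were also set against the mean of the other 5 libraries. The SD of the difference was 0.357 and 0.379 in WT, 0.234 and 0.155 in line 1, and 0.214 and 0.243 in line 2. That mean holds fewer WT libraries for a WT library than for a knockout library, and WT levels chose the members. The SDs are therefore descriptions. The first 200 transcripts shared fewest IDs between WT replicate 2 and line 1 replicate 1 (157) and most between line 1 replicate 2 and line 2 replicate 1 (188).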
